A study of Mus musculus with 10 samples.

Results

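The 9 genes described here make or guard the nucleotides used for DNA replication. They were 9 of the 55487 gene rows in each of 2 mouse liver tables and were followed in livers regrowing after partial hepatectomy (PHx), the surgical removal of part of the liver. By function they were the ribonucleotide reductase subunits Rrm1, Rrm2 and Rrm2b, the thymidylate enzymes Tyms and Tk1, the pool-cleaning pyrophosphatases Dut and Dctpp1, and the pyrimidine synthesis enzymes Cad and Umps. All 9 were found by Ensembl identifier and all 9 passed the filter on low counts in both tables. In the diet experiment, 3 libraries came from 8-week-old male C57BL/6J mice kept on a high-fat diet (HFD) during 7 days, and 3 from chow-fed mice of the same age, sex and strain. Livers of both diet groups were collected 40 hours after PHx. In the inhibitor experiment, 4 libraries came from 8-week-old C57BL/6J mice, labelled male, that received 40 mg/kg of an agent labelled SSO 1 day before PHx, and 4 from mice given the solvent alone (vehicle). Those livers were collected at 48 hours. No unoperated liver was among these 14 libraries, so each comparison is between 2 sets of regenerating livers. The diet design names 3 mice per group, while the inhibitor labels name 8 mice per group beside 4 libraries. Nothing states that every library is a separate animal, so the p-values measure the spread between these libraries, part of which may be technical.

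A dividing hepatocyte has to enlarge its small store of deoxynucleotides before it can copy its genome. Ribonucleotide reductase turns ribonucleotides into deoxyribonucleotides with a large subunit, Rrm1, that carries the active site, and a small subunit that carries the radical. Rrm2 is the small subunit used in S phase and its protein is degraded as cells leave mitosis, whereas Rrm2b is the small subunit induced by the tumour suppressor p53 and used for DNA repair and mitochondrial DNA outside S phase. Tyms methylates dUMP to dTMP, Tk1 makes the same product from salvaged thymidine, Dut hydrolyses dUTP so that uracil is not built into DNA, and Dctpp1 removes modified dCTP. Cad carries the opening reactions of de novo pyrimidine synthesis on a single polypeptide, and Umps completes UMP, the precursor of the other pyrimidines.

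The libraries held 31.9 to 33.9 M (mega) counts in HFD and 36.7 to 39.9 M in chow livers, and 28.0 to 30.4 M in SSO and 25.2 to 29.8 M in vehicle livers. Levels of a gene are given as CPM, its counts scaled to 1000000 counts per library. The 3 chow and the 4 vehicle libraries were uneven. Chow library 3 had a summed level of 5 cycling-cell genes (Mki67, Top2a, Pcna, Mcm5 and Ccna2) of 42.0 CPM, against 115 and 105 CPM in chow libraries 1 and 2. Vehicle library 2 stood at 67.4 CPM for the same genes, against 188, 195 and 128 CPM in vehicle libraries 1, 3 and 4, and mitochondrially encoded genes took 22.5% of its counts. Vehicle libraries 1 and 3 stood apart on 7 monocyte-derived macrophage markers, with 508 and 568 CPM against 66.8 and 98.5 CPM in vehicle libraries 2 and 4. They were also the higher pair for summed Kupffer cell (391 and 299 against 93.3 and 82.0 CPM) and stellate cell markers (399 and 362 against 110 and 175 CPM). The same held for neutrophil, cholangiocyte and sinusoidal endothelial markers. It did not hold for T and NK cell or B cell markers, and for hepatocyte and erythroid markers they were the lower pair. The hepatocyte markers Alb, Apoa1, Ttr, Cps1 and Serpina1c were abundant in all 14 libraries, in sum 45523 to 99693 CPM. The inhibitor livers went against their labelled sex. Xist, which coats the silenced X of females, ran at 1580 to 1772 CPM in SSO and 698 to 1608 CPM in vehicle livers, and the Y-linked genes Ddx3y, Uty, Kdm5d and Eif2s3y had 0 counts in all 8, whereas the diet livers carried the Y-linked genes. Both inhibitor groups share this, so it does not separate them.

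Per length of exon, the 9 genes covered a wide span within each liver. Levels between genes are given here as RPKM, which is CPM divided by the length of the merged exons of each gene in kilobases. Dctpp1 was highest in all 4 groups, at 31.2 ± 3.42 RPKM in HFD and 28.8 ± 2.90 in chow livers (SD, n = 3 each), and at 45.8 ± 3.33 RPKM in SSO and 43.5 ± 10.1 in vehicle livers (SD, n = 4 each). Rrm2b was lowest in all 4 groups, with group means between 0.276 and 0.404 RPKM. The place of Rrm2 in the order varied between groups. It was 2nd in HFD livers at 17.3 ± 6.71 RPKM and 3rd in chow livers at 6.09 ± 5.13 RPKM, then 6th in SSO livers at 2.37 ± 0.693 RPKM and 4th in vehicle livers at 7.72 ± 3.73 RPKM. In HFD livers the Rrm2 range lay clear of its neighbours Dctpp1 and Umps, while in chow livers it overlapped both Umps and Dut. Umps, Dut and Tk1 were 3rd to 5th in HFD livers, at 6.43 to 7.16 RPKM. In chow livers they lay at 4.62 to 9.04 RPKM, with Umps 2nd, above Rrm2, and Dut and Tk1 4th and 5th. Umps was also 2nd in SSO and vehicle livers. In SSO livers Umps stood at 13.0 ± 1.34 and Tk1 at 11.1 ± 1.81 RPKM, against 11.2 ± 1.38 and 9.64 ± 4.06 RPKM in vehicle livers, with the ranges of Umps and Tk1 overlapping in both groups. Cad, Tyms and Rrm1 were lower, and Rrm1, the subunit both reductases share, stood below Rrm2 per length in every group. Part of the order depends on which length is used. With the longest transcript in place of the merged exons, Dctpp1 stayed highest and Rrm2b lowest, at 0.553 to 0.809 RPKM, but Tk1 was higher, at 23.2 in SSO and 20.1 RPKM in vehicle livers. Tk1 then stood clear of Umps in SSO livers. Rrm2 was then 4th in chow livers, and in HFD livers, at 21.9 RPKM, its range overlapped that of Dctpp1.

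Tyms was higher in HFD than in chow livers and was the 1 member of 9 that passed the test, at 2.47-fold. Rrm1 and Rrm2 were also above chow in all 3 HFD livers, but their differences did not pass, and the spread among the chow livers was wide. Tk1, Dut, Dctpp1, Cad, Umps and Rrm2b overlapped between the diets. Among all 15589 genes tested, 1.60% were called higher in HFD livers and 0.718% lower, at an adjusted p under 0.05 by edgeR's quasi-likelihood test with Benjamini-Hochberg adjustment over the whole table. The median log2 fold change of the 9 members was 0.47, beside -0.02 over all genes tested, with 7 members above 0 and 2 below.

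Rrm1 measured 33.7, 32.4 and 49.9 CPM in the 3 HFD livers, against 23.9, 26.4 and 9.47 CPM in the 3 chow livers. Every HFD liver was above every chow liver, and chow library 3 was the lowest. The log2 fold change was 0.95 ± 0.38 (SE), with a 95% interval of 0.04 to 1.87 and an edgeR adjusted p of 0.311. For Rrm2 the values were 36.5, 38.1 and 69.5 CPM in HFD livers, against 31.0, 17.1 and 2.52 CPM in chow livers. The groups did not overlap, yet the highest chow liver lay just under the lowest HFD liver and the lowest, chow library 3, rested on 82 counts. Its log2 fold change of 1.51 ± 0.83 (SE) had an interval of -0.55 to 3.56 and an edgeR adjusted p of 0.481, and it was 1.0 without chow library 3 and 2.28 without chow library 1. Rrm2b ran at 2.54, 2.96 and 2.07 CPM in HFD livers, against 1.95, 4.03 and 5.04 CPM in chow livers. Chow library 3, lowest for Rrm1 and Rrm2, was here the highest of the 6, and the groups overlapped (log2 fold change -0.54 ± 0.36, edgeR adjusted p 0.542).

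Tyms, the sole de novo route to dTMP, measured 21.3, 19.3 and 30.5 CPM in HFD livers, against 12.0, 10.5 and 6.21 CPM in chow livers. The groups were separate, with the lowest HFD liver well above the highest chow liver. The log2 fold change was 1.30 ± 0.27 (SE), with a 95% interval of 0.69 to 1.92 and an edgeR adjusted p of 0.0488. The call was close to the threshold. It was lost without HFD library 1, 2 or 3 (adjusted p 0.152, 0.0847 and 0.163) and without chow library 2 (0.132), and kept without chow library 1 (0.0296) or 3 (0.0397), with a log2 fold change of 1.07 to 1.50 over these fits. With all libraries, Tyms was also called by DESeq2 (adjusted p 0.000163) and limma-voom (0.0462), but not by edgeR with a replicate block (0.149). DESeq2 called 5.36% of all genes to which it gave an adjusted p. Tk1, the thymidine kinase of the salvage route, stood at 27.2, 30.3 and 42.9 CPM in HFD livers, against 29.5, 31.9 and 10.7 CPM in chow livers. Only chow library 3 was low, and the other 5 livers overlapped (log2 fold change 0.48 ± 0.41, edgeR adjusted p 0.654).

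Of the 2 pool-cleaning enzymes, Dut measured 14, 14.8 and 17.9 CPM in HFD livers, against 16.7, 9.60 and 7.38 CPM in chow livers. Chow library 1 lay among the HFD livers, and the log2 fold change of 0.47 ± 0.28 did not pass (edgeR adjusted p 0.493). Without that library Dut was called too, at a log2 fold change of 0.88 and an edgeR adjusted p of 0.0454. In that fit the whole table had 681 calls, in place of 361. Dctpp1 was even, at 18.8, 23.4 and 21.2 CPM in HFD and 18.9, 21.6 and 17.8 CPM in chow livers, with a log2 fold change of 0.12 and an interval of -0.20 to 0.44. The genes of UMP synthesis went in opposite directions in chow library 3. Cad measured 36.9, 33.3 and 26.8 CPM in HFD livers, against 23.3, 19.6 and 43.5 CPM in chow livers, where library 3 was the highest of all 6. Umps measured 23.1, 25.2 and 26.5 CPM in HFD livers, against 39.8, 32.1 and 22.6 CPM in chow livers, where library 3 was the lowest of all 6. Neither passed, with log2 fold changes of 0.17 ± 0.29 for Cad and -0.34 ± 0.19 for Umps and edgeR adjusted p of 0.85 and 0.476.

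**Figure D1:**
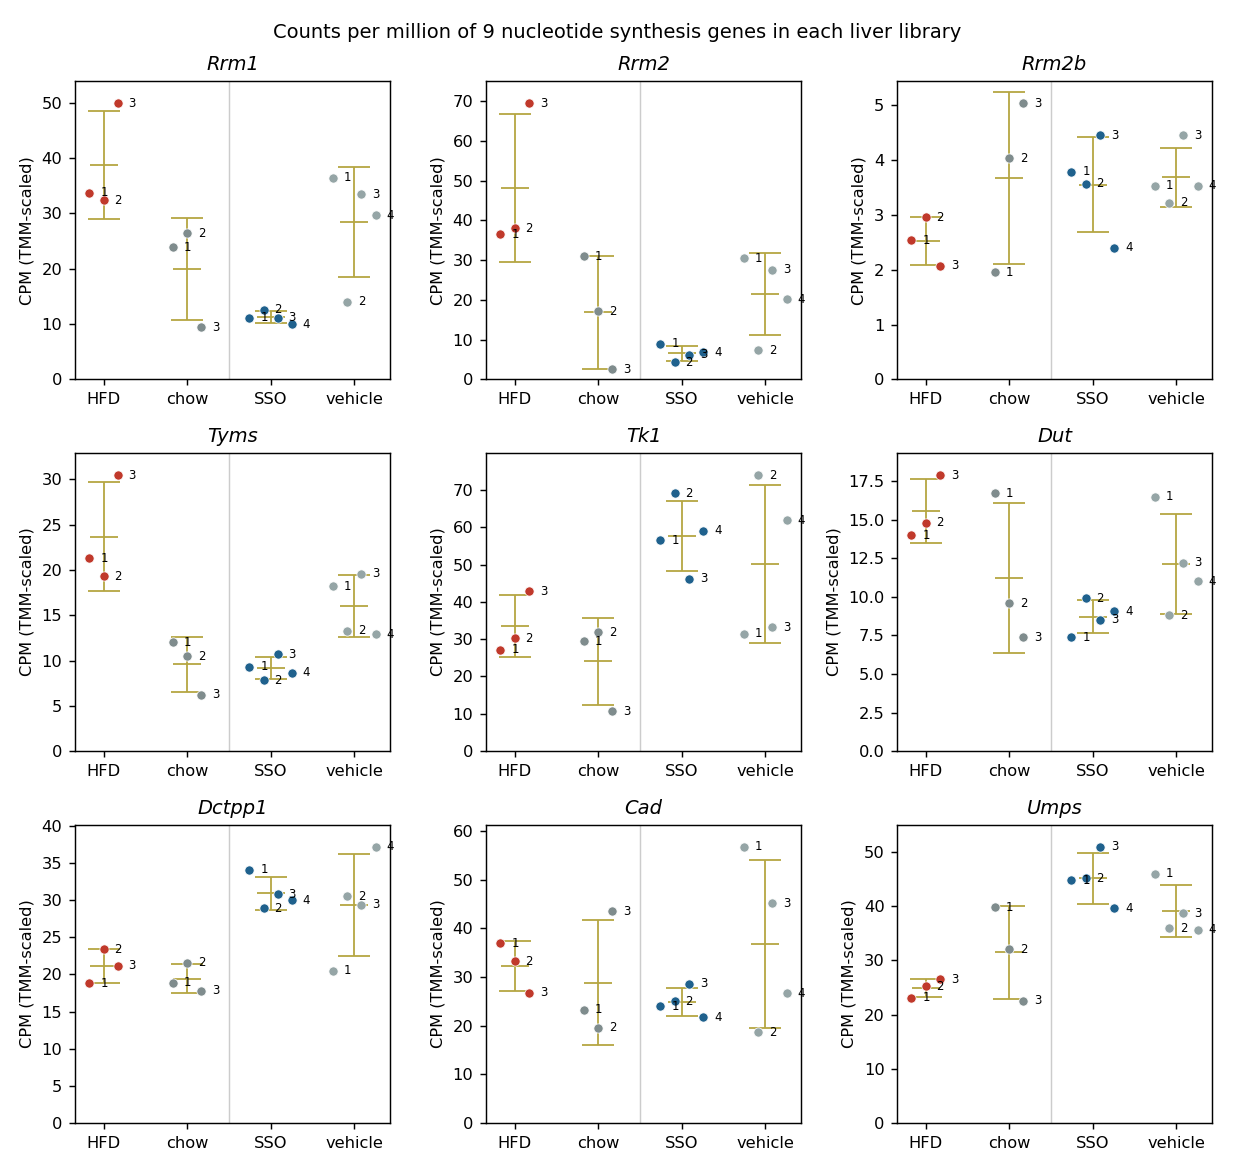
Each panel plots 1 gene, in TMM-scaled CPM on a linear axis from 0, with 1 numbered point per liver library in the HFD, chow, SSO and vehicle groups, and ochre bars for the mean and SD. Rrm2 runs from 36.5 to 69.5 CPM in HFD and from 2.52 to 31.0 CPM in chow livers, and Rrm1 lies between 9.94 and 12.6 CPM in all 4 SSO livers.

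In the diet experiment 3 of the 9 members (Rrm1, Rrm2 and Tyms) had every HFD liver above every chow liver, and none had every HFD liver below. Over all genes tested these shares were 11.2% and 10.8%. The cycling-cell genes moved with the 3 members in sum. They measured 285, 262 and 369 CPM in HFD livers, against 115, 105 and 42.0 CPM in chow livers, and 2 of the 5 were called. Mki67, Top2a and Ccna2 had every HFD liver above every chow liver, while Pcna and Mcm5 overlapped. The sums of 3 other marker lists were also higher. Monocyte-derived macrophage markers summed to 110 to 120 CPM in HFD and 66.6 to 89.8 CPM in chow livers. Cholangiocyte markers summed to 90.8 to 95.5 CPM in HFD and 45.5 to 80.3 CPM in chow livers. These 2 sums rest on Spp1, a gene on both lists, at 82.5 to 87.4 CPM in HFD and 39.6 to 63.9 CPM in chow livers. The other 6 macrophage and 3 cholangiocyte markers overlapped between the diets. B cell markers were scarce, at 1.45 to 1.90 CPM in HFD and 0.602 to 1.39 CPM in chow livers, and of them only Cd79b did not overlap. In the other direction, the sum of 5 stellate cell markers was 214 to 280 CPM in HFD and 303 to 310 CPM in chow livers, and that of 5 erythroid markers 181 to 291 CPM in HFD and 297 to 539 CPM in chow livers, with 1 gene of each list (Dcn and Hbb-bt) not overlapping. No gene of these 5 lists was called, and none was at 0 in all libraries. The hepatocyte and neutrophil sums overlapped between the diets, with 0 genes called. Of their single genes, Apoa1 was higher in every HFD liver, and Cps1 and S100a8 were lower. Cps1 ran at 1071 to 2198 CPM in HFD and 3520 to 4411 CPM in chow livers. In bulk liver, fewer cells of a type and less RNA per cell cannot be told apart, and the part of cell makeup in the Tyms, Rrm1 and Rrm2 values was not tested.

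The upstream sequences of Rrm1, Rrm2 and Tyms are shown because these 3 genes had the largest fitted differences of the members in both experiments. Each is the window from 250 bases before to 50 bases after the RefSeq start (assembly GRCm38.p6), 5′ to 3′ on the gene's strand, with the letters CCAAT in capitals. The Rrm1 window is chr7:102441445-102441744 (plus strand), that of Rrm2 chr12:24708004-24708303 (plus strand) and that of Tyms chr5:30073576-30073875 (minus strand).
Rrm1: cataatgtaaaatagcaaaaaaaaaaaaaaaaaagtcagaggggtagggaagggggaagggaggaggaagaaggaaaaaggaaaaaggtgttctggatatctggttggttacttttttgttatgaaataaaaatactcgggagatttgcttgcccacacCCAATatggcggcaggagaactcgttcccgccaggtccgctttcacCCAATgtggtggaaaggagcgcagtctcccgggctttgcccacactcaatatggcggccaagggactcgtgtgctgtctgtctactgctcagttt
Rrm2: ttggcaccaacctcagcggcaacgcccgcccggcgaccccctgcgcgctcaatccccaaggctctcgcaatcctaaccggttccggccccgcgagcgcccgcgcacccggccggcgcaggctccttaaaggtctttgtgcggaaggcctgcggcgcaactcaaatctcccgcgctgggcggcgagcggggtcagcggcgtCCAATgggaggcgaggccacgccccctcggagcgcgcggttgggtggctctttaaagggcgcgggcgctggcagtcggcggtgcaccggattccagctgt
Tyms: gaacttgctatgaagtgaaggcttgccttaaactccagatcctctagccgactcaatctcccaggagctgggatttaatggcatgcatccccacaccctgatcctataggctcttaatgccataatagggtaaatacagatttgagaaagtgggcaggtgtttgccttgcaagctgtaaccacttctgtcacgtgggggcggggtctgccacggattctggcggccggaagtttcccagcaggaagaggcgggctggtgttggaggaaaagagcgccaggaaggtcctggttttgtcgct
Rrm1 holds CCAAT with its first base at -91 and at -45 from the start, and Rrm2 holds it once, at -50, while the Tyms window holds none on either strand. Windows were given for 8 of the 9 members, the exception being Rrm2b. Dctpp1 carries the motif on the opposite strand, at -130 and -31, and Tk1, Dut, Cad and Umps lack it, so 3 of 8 windows had CCAAT beside 37.4% of 32851 windows of all genes. The cell-cycle homology region (CHR) letters TTTGAA or TTCGAA, searched on both strands, occurred in 1 of 8, that of Umps at -95, beside 19.2% of all windows. Of 4 E2F site spellings, TTTGGCGC, TTTCCCGC, TTTCGCGC and TTTGCCGC, none occurred in the 8 windows, beside 2.26% of all windows. Letter matches describe these windows and say nothing on binding.

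The direction was the other way round in the inhibitor experiment for Rrm1, Rrm2 and Tyms, which had the 3 largest differences of the members between SSO and vehicle livers. By the fitted fold, SSO livers held 0.393 times the Rrm1, 0.307 times the Rrm2 and 0.570 times the Tyms of vehicle livers. The experiments differed in agent, in hours after PHx and in the X- and Y-linked transcripts given above, have separate controls and were not tested against each other. None of the 9 members passed edgeR's test over all 15788 genes, in which 0.317% of genes were called higher in SSO livers and 0.133% lower. Rrm1, Rrm2 and Tyms, 3 of the 9, had an unadjusted p under 0.05, and these 3 were called by DESeq2, while limma-voom called 0. Of all genes tested, 20.5% had an unadjusted p under 0.05, and DESeq2 called 6.35% of the 17905 genes to which it gave an adjusted p. The median log2 fold change of the members was -0.48, beside -0.04 over all genes tested, with 3 members above 0 and 6 below.

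Rrm1 measured 11.1, 12.6, 11.1 and 9.94 CPM in the 4 SSO livers, against 36.4, 14, 33.5 and 29.7 CPM in the 4 vehicle livers. The groups did not overlap, and vehicle library 2 was the one near the SSO livers. The log2 fold change was -1.35 ± 0.27 (SE), with a 95% interval of -1.93 to -0.76, a p of 0.000397 and an edgeR adjusted p of 0.065. For Rrm2 the values were 8.99, 4.33, 6.17 and 6.76 CPM in SSO livers, against 30.5, 7.31, 27.6 and 20.2 CPM in vehicle livers. Vehicle library 2 fell inside the SSO range and the other 3 were above it. The log2 fold change of -1.71 ± 0.40 (SE) had an interval of -2.59 to -0.82 and an edgeR adjusted p of 0.105. Rrm2b, the alternative small subunit, was level at 3.79, 3.57, 4.46 and 2.40 CPM in SSO and 3.53, 3.22, 4.46 and 3.53 CPM in vehicle livers. Its log2 fold change was -0.06, with an interval of -0.70 to 0.59.

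Tyms measured 9.32, 7.83, 10.7 and 8.65 CPM in SSO livers, against 18.2, 13.3, 19.6 and 12.9 CPM in vehicle livers. All SSO livers were below all vehicle livers, with libraries 2 and 4 the lower pair of the vehicle group. The log2 fold change was -0.81 ± 0.20 (SE), with an interval of -1.26 to -0.36 and an edgeR adjusted p of 0.106. Tk1 did not share this pattern. It ran at 56.5, 69.1, 46.2 and 59.1 CPM in SSO livers, against 31.5, 74.0, 33.2 and 61.8 CPM in vehicle livers, where libraries 1 and 3 were low and libraries 2 and 4 were within or above the SSO range (log2 fold change 0.20 ± 0.28, edgeR adjusted p 0.699).

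Dut measured 7.39, 9.90, 8.52 and 9.08 CPM in SSO livers, against 16.5, 8.81, 12.2 and 11.0 CPM in vehicle livers. Vehicle libraries 1, 3 and 4 were above all SSO livers and vehicle library 2 was among them, and the log2 fold change of -0.48 ± 0.23 did not pass (edgeR adjusted p 0.263). Dctpp1 again showed little difference, at 34.1, 28.9, 30.8 and 30.0 CPM in SSO and 20.5, 30.5, 29.4 and 37.2 CPM in vehicle livers, with a log2 fold change of 0.08 and an interval of -0.32 to 0.48. Cad measured 24.0, 25.0, 28.6 and 21.8 CPM in SSO livers, against 56.8, 18.7, 45.2 and 26.7 CPM in vehicle livers. Vehicle libraries 1 and 3 were high and vehicle library 2 was below every SSO liver (log2 fold change -0.57 ± 0.30, edgeR adjusted p 0.308). Umps measured 44.8, 45.2, 51.0 and 39.6 CPM in SSO and 46.0, 35.9, 38.7 and 35.7 CPM in vehicle livers, with overlap and a log2 fold change of 0.21 ± 0.14 (edgeR adjusted p 0.428).

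**Figure D2:**
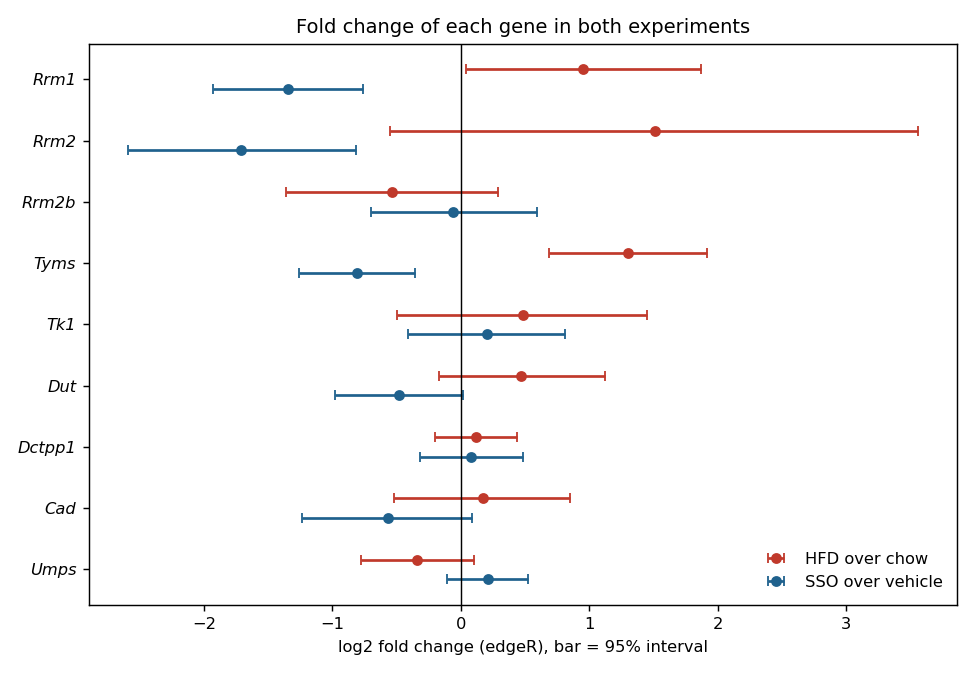
Points give the edgeR log2 fold change of each gene for HFD over chow (red) and SSO over vehicle (blue), with bars for the 95% interval. The interval of Tyms lies above 0 for HFD over chow (0.69 to 1.92) and below 0 for SSO over vehicle (-1.26 to -0.36), and that of Dctpp1 is narrow around 0 in both.

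Rrm1 and Tyms, 2 of the 9 members, had every SSO liver below every vehicle liver, and none had every SSO liver above. Over all genes tested these shares were 5.62% and 6.14%. The SSO result turned on which vehicle livers were kept. Without vehicle library 2, 4 members were called lower, namely Rrm1 (log2 fold change -1.57, edgeR adjusted p 0.000497), Rrm2 (-1.99, 0.00148), Tyms (-0.89, 0.0167) and Cad (-0.79, 0.0373), and the whole table gave 2646 called genes in place of 71. Without each of the other 7 libraries in turn, 0 members were called. When vehicle libraries 1 and 3 were both left out, the log2 fold changes were -0.97 for Rrm1, -1.07 for Rrm2 and -0.52 for Tyms, with edgeR adjusted p of 0.172, 0.279 and 0.334, and that of Cad turned to 0.13.

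**Figure D3:**
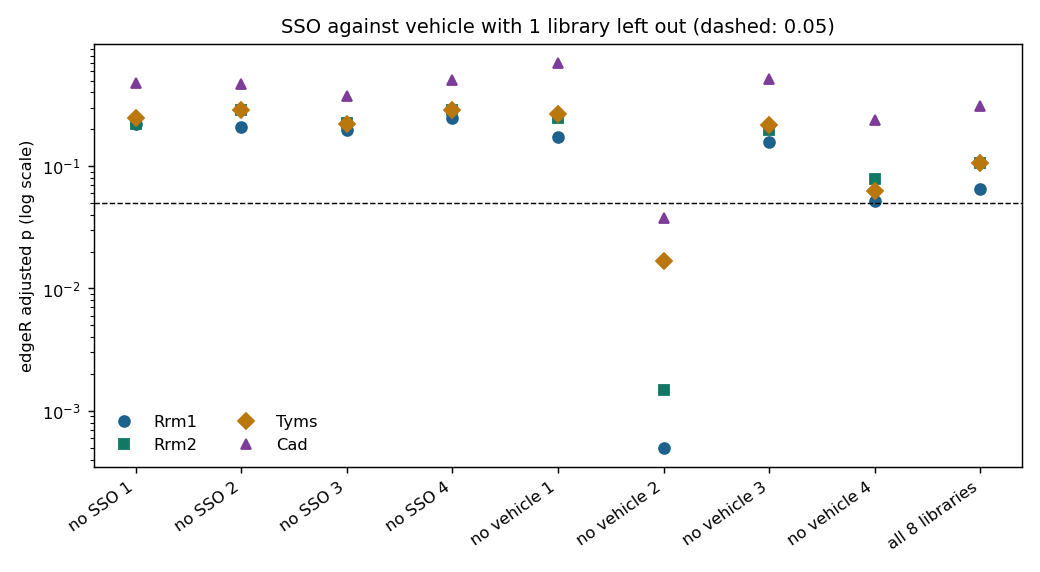
The vertical axis is the edgeR adjusted p of Rrm1, Rrm2, Tyms and Cad for SSO against vehicle on a log scale, and each position on the horizontal axis is a fit with 1 library left out, or with all 8. All 4 genes lie under the dashed line at 0.05 in the fit without vehicle library 2 (0.000497 to 0.0373), and in the other fits all lie above it.

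In sum the cycling-cell genes were lower in SSO livers than in vehicle libraries 1, 3 and 4. Vehicle library 2 lay inside the SSO range. They summed to 72.1, 64.4, 61.5 and 61.4 CPM in SSO livers, against 188, 67.4, 195 and 128 CPM in vehicle livers, with 0 of the 5 called. Pcna and Mcm5 had every SSO liver below every vehicle liver. Mki67, Top2a and Ccna2, which were separate in the diet experiment, overlapped here. The macrophage markers had every SSO liver below every vehicle liver in sum, at 32.9 to 52.1 CPM in SSO and 66.8 to 568 CPM in vehicle livers. Only 1 of the 7, Lyz2, was separate by itself (0.0371 to 11.3 CPM in SSO and 23.0 to 189 CPM in vehicle livers) and the other 6 overlapped, with 0 of the 7 called and none at 0 in all libraries. The hepatocyte, Kupffer cell, neutrophil, endothelial, stellate, cholangiocyte, T and NK cell, B cell and erythroid sums overlapped, with no gene called. Of their single genes, Krt19 was higher in every SSO liver and Hbb-bt was lower. Mitochondrially encoded genes took 15.2 to 17.6% of counts in SSO livers and 4.99 to 22.5% in vehicle livers. The part of these differences in the member values was not tested. With the mitochondrial genes left out before scaling, the log2 fold changes were -1.34 for Rrm1, -1.69 for Rrm2 and -0.80 for Tyms.

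Ratios inside a library do not depend on how libraries were scaled to each other, and 3 pairs were compared as log2 ratios of counts. The ratio of Rrm2 to Rrm2b, the S-phase to the repair subunit, was 3.84, 3.68 and 5.06 in HFD livers, against 3.98, 2.08 and -1.0 in chow livers. Chow library 3 was the 1 liver of 14 with fewer Rrm2 than Rrm2b counts. The means were 4.19 ± 0.76 in HFD and 1.69 ± 2.51 in chow livers (SD, n = 3 each; exact permutation p 0.3, two-sided, where the smallest possible is 0.1). The difference of 2.50 turned on chow livers, at 1.16 without chow library 3 and 3.65 without chow library 1. In the inhibitor experiment the same ratio was 1.24, 0.28, 0.47 and 1.49 in SSO livers, against 3.10, 1.18, 2.62 and 2.51 in vehicle livers. Only vehicle library 2 overlapped the SSO livers, and the means of 0.87 ± 0.59 and 2.35 ± 0.83 gave an exact permutation p of 0.0857 (two-sided, n = 4 each, smallest possible 0.0286).

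Within the reductase itself the ratio of Rrm2 to Rrm1 averaged 0.27 ± 0.19 in HFD and -0.72 ± 1.14 in chow livers, and -0.81 ± 0.53 in SSO and -0.51 ± 0.32 in vehicle livers, with overlap in both experiments (exact permutation p 0.3 and 0.429). The diet difference of 0.99 was 0.40 without chow library 3 and 1.54 without chow library 1, and the SSO difference of -0.30 was -0.06 without SSO library 2. The ratio of Tyms to Tk1, new dTMP against salvage, was -0.35, -0.65 and -0.49 in HFD livers, against -1.29, -1.60 and -0.78 in chow livers. Here the groups did not overlap, and the exact permutation p of 0.1 is the smallest that 3 against 3 can give. In SSO livers it was -2.60, -3.14, -2.11 and -2.77, against -0.79, -2.48, -0.76 and -2.26 in vehicle livers, where libraries 2 and 4 lay among the SSO livers (exact permutation p 0.114). After Benjamini-Hochberg adjustment over the 6 tests the p-values were between 0.229 and 0.429, so no ratio was shown to differ.

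**Figure D4:**
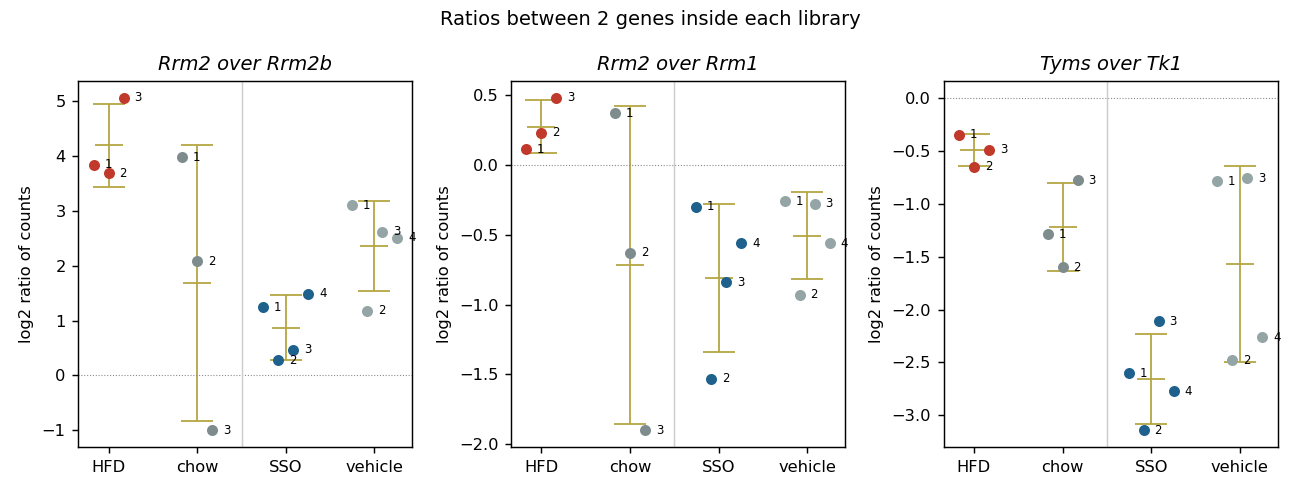
The 3 panels plot the log2 ratio of counts of 2 genes inside each numbered library, for HFD, chow, SSO and vehicle livers, with ochre bars for the mean and SD. The ratio of Rrm2 to Rrm2b falls below 0 in chow library 3 alone (-1.0), and the ratio of Tyms to Tk1 separates HFD from chow livers.

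Livers of the same group also differed from each other, and several members varied together. Over the 14 libraries, which share 2 tables, log2 CPM deviations from the group mean had a Pearson r of 0.89 between Rrm1 and Rrm2, 0.85 between Rrm2 and Tyms, 0.77 between Rrm2 and Dut and 0.80 between Rrm2 and Umps. Rrm2b ran against Rrm2 at -0.49, and Dctpp1 was unrelated to it at 0.02. Tk1 and Cad opposed each other at -0.94. The members, mitochondrially encoded genes and genes with predicted or clone names were left out of a ranking, which left 12857 genes tested in both tables. Those nearest to Rrm2 by this measure were Gtf3a (0.98), Cdc45 (0.95), Clspn (0.94), Mcm3 (0.94) and Chaf1a (0.94). Nearest to Tyms were Mdfic (0.93), Traf6 (0.90), Zwilch (0.89), Rbm43 (0.88) and Kif18a (0.87). Nearest to Rrm2b were Tapbpl (0.84), Dnajc12 (0.84), Inf2 (0.82), Mcoln2 (0.79) and Pax5 (0.79). These correlations describe the 14 libraries, and how far they rest on chow library 3 or on single vehicle livers was not tested.

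Tk1 shares ground with another gene. Tk1 lies on the minus strand of chromosome 11 from 117815526 to 117826092 (GRCm38), and Afmid, which encodes the tryptophan-pathway enzyme arylformamidase, lies on the plus strand from 117825924 to 117839908, so the 5′ ends overlap, over 1.6% of the merged Tk1 exons. Afmid, chosen here after its values were seen, measured 55.6, 69.2, 55.5 and 51.0 CPM in SSO livers, against 25.6, 61.0, 19.8 and 55.0 CPM in vehicle livers. As with Tk1, vehicle libraries 1 and 3 were the low ones. In the diet experiment Afmid measured 9.73, 16.6 and 21.7 CPM in HFD livers, against 23.3, 23.0 and 7.56 CPM in chow livers, and its deviations from the group mean had an r of 0.94 with those of Tk1 over the 14 libraries. Whether the counts were made by strand is not given in the sources used here, so reads of the 2 genes cannot be told apart where they overlap, and the share of Afmid reads in the Tk1 counts was not tested. Rrm2b and Umps also overlap an antisense gene, Rrm2b over 8.04% of its exons (Gm49085, at most 2.04 CPM in any library) and Umps over 6.11% (Gm15829, at most 0.297 CPM). The processed pseudogene Tyms-ps drew 1 count in the whole diet table and 7 in the inhibitor table.

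The other genes of nucleotide metabolism were taken from 4 lists, 57 genes in all, every one of which was tested in both tables. Among all genes tested, 1.60% were called higher in HFD livers and 0.718% lower, with a median of -0.02 on the log2 scale. Of the 20 genes of thymidylate, folate and deoxynucleotide supply, 1 rose in HFD livers and none fell, with a list median of 0.15. That gene was Cmpk2, a mitochondrial nucleoside monophosphate kinase that is also induced by interferon. It measured 11.0, 9.46 and 9.45 CPM in HFD livers, against 3.82, 1.41 and 1.48 CPM in chow livers, a log2 fold change of 2.15 ± 0.38 (edgeR adjusted p 0.027). Every HFD liver was above every chow liver. The purine list had 1 of 15 genes lower and none higher (median -0.10). Aprt, which salvages adenine, fell to 44.4, 47.2 and 49.3 CPM in HFD livers, against 74.8, 71.6 and 94.6 CPM in chow livers (log2 fold change -0.77, edgeR adjusted p 0.0277).

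Nucleotide breakdown, with 13 genes, had 1 higher and 1 lower in HFD livers (median -0.04). Tymp, which splits thymidine to thymine, rose to 31.8, 33.7 and 27.1 CPM in HFD livers, against 20.7, 12.9 and 12.8 CPM in chow livers (log2 fold change 1.0, edgeR adjusted p 0.0426). Upb1, the last enzyme of pyrimidine base breakdown, fell to 232, 271 and 256 CPM in HFD livers, against 379, 419 and 417 CPM in chow livers (log2 fold change -0.68, edgeR adjusted p 0.0468). In Aprt, Tymp and Upb1, as in Cmpk2, the diets did not overlap. Over all genes tested, 11.2% had every HFD liver above every chow liver and 10.8% had every HFD liver below. None of the 9 genes of pyrimidine synthesis and salvage was called (median -0.17). At an unadjusted p under 0.05 there were 2 of the 9, beside 15.0% of all genes, and DESeq2 called none, beside 5.36% of all genes to which it gave an adjusted p. The smallest p of that list belonged to the uridine phosphorylase Upp2, at 12.9, 28.0 and 21.1 CPM in HFD livers, against 113, 52.2 and 30.4 CPM in chow livers (edgeR adjusted p 0.231). Like that of Tyms, the calls of Tymp and Upb1 were near the threshold. Without any 1 of the 3 HFD libraries, none of the 4 list calls passed. The whole table then had 86, 174 and 132 calls without HFD library 1, 2 and 3, in place of 361.

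In SSO livers none of the 57 genes was called by edgeR. Unadjusted p-values under 0.05 numbered 8 of 20, 3 of 9, 5 of 15 and 2 of 13 in the lists of deoxynucleotide supply, pyrimidine synthesis, purine synthesis and breakdown, and DESeq2 called 4, 3, 1 and 0 of them. These counts stand beside 20.5% of all genes at that p and 6.35% called by DESeq2. List medians on the log2 scale were -0.29, 0.27, -0.37 and -0.04, beside -0.04 over all genes tested, and 13 of the 15 purine genes were below 0. Guk1, the guanylate kinase that phosphorylates GMP and dGMP, measured 16.1, 18.6, 25.2 and 20.7 CPM in SSO livers, against 39.1, 27.1, 31.7 and 41.3 CPM in vehicle livers (log2 fold change -0.79 ± 0.19, edgeR adjusted p 0.106). All SSO livers were below all vehicle livers. Atic, which closes the purine ring, measured 24.8, 14.6, 21.9 and 16.3 CPM in SSO livers, against 57.0, 25.5, 42.0 and 32.1 CPM in vehicle livers (log2 fold change -1.01, edgeR adjusted p 0.111).

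In the lists of pyrimidine synthesis and salvage and of breakdown, the gene with the smallest p was higher in SSO livers. Neither list moved as a whole by a call. The pyrimidine list had 7 genes above 0 and 2 below, among them Ctps at a log2 fold change of -1.78 (edgeR adjusted p 0.151). Breakdown had 6 above and 7 below. Uckl1, of the uridine-cytidine kinase family, measured 44.8, 47.5, 45.1 and 45.4 CPM in SSO livers, against 25.5, 37.0, 32.0 and 28.9 CPM in vehicle livers (log2 fold change 0.57, edgeR adjusted p 0.11). Upb1 measured 419, 483, 448 and 451 CPM in SSO livers, against 237, 320, 191 and 408 CPM in vehicle livers (log2 fold change 0.64, edgeR adjusted p 0.188). In both genes every SSO liver was above every vehicle liver, though Upb1 in vehicle library 4 came close. Over all genes tested, 6.14% had every SSO liver above every vehicle liver and 5.62% had every SSO liver below. Cmpk2, called higher in HFD livers, had a log2 fold change of -2.87 ± 0.66 for SSO over vehicle (edgeR adjusted p 0.106, DESeq2 adjusted p 2.29e-05). It spread over 6.55 to 10.0 CPM in SSO and 7.27 to 107 CPM in vehicle livers, and vehicle library 4 lay inside the SSO range. Upb1, called lower in HFD livers, also went the other way here, while Tymp and Aprt kept their direction. Tymp had a log2 fold change of 1.17 ± 0.45 (edgeR adjusted p 0.199), with every SSO liver above every vehicle liver. That of Aprt was -0.37 ± 0.22 (edgeR adjusted p 0.357), and its groups overlapped.

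**Figure D5:**
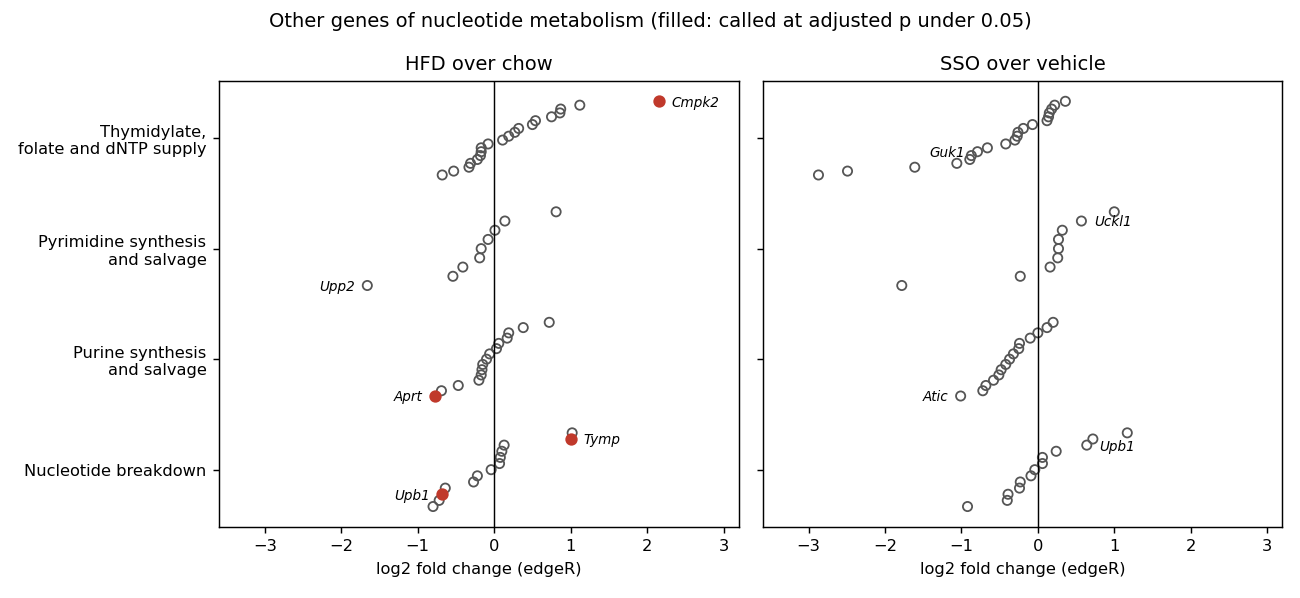
Each point is 1 of 57 genes in 4 lists, placed by its edgeR log2 fold change for HFD over chow (left) and SSO over vehicle (right) and sorted within its list. Filled points passed the test and are named, 4 on the left and 0 on the right, and a list with no call has its gene of smallest p named.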

How the data were processed

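Whole-liver poly-A RNA-seq libraries were analysed from 2 deposited tables of raw gene counts (3 HFD and 3 chow, 4 SSO and 4 vehicle libraries). Per the submitters' processing notes, the tools were HISAT2 2.2.1, DESeq2, Trim Galore 0.6.1 and featureCounts 2.0.2, with build GRCm38. Strand handling is not given in the sources used here. Columns were matched to groups by their names, since 1 labelled record per group was used here. The deposited table of sorted macrophages and the single-cell data were not used. The 9 members, the lists and the tests were chosen with earlier results of these data known.

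Each table was fitted alone with edgeR 4.0.16 (R 4.3.3): TMM scaling, filterByExpr, robust quasi-likelihood test and Benjamini-Hochberg adjustment over all genes tested, called at 0.05. Intervals are 95%. CPM used TMM-scaled library sizes, and RPKM used merged GENCODE M21 exons (the longest transcript as an alternative), to which 55227 of 55487 gene identifiers matched. Ratios had 0.5 counts added and exact two-sided permutation tests (scipy 1.17.1). The code was tested on simulated counts. Named list genes were all those called, or the smallest p where none was. For SSO against vehicle, Ctps, Cmpk2, Tymp and Aprt were also named, outside this rule. Alternatives were DESeq2 1.42.0, limma-voom (limma 3.58.1), other scalings, no filter, a replicate block and left-out libraries. Total counts of 25.2 to 39.9 M (mega) left at least 67 counts for every member in every library. Libraries of a group were not copies: their counts differed by 16.5 to 533 chi-square units per degree of freedom.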

Additional observations from a re-analysis of the deposited data

How the results depend on the processing

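Tyms kept its direction in every fit listed in the report. The count of members called in HFD against chow was 1, and it was 0 with a replicate block and 0 to 2 with 1 library left out. Over all diet genes 361 were called, against 865 with DESeq2, 672 with no filter, 206 with the replicate block and 86 to 681 with 1 library left out. For SSO against vehicle the members called numbered 3 with DESeq2, 1 (Rrm1) with no filter and 0 to 4 with 1 library left out. The whole inhibitor table had 71 calls, against 1137 with DESeq2, 37 with library size alone, 205 with no filter, 47 with the replicate block and 0 to 2646 with 1 library left out. Leaving a library out also leaves fewer samples, and otherwise the cause was not tested. Same-numbered libraries did not deviate together (r of -0.11 to 0.03), so the replicate block pairs nothing the labels support. Small fold changes turned sign. For SSO over vehicle without vehicle 1 and vehicle 3 the log2 values were 0.07 for Rrm2b, -0.23 for Tk1, -0.13 for Dctpp1 and 0.13 for Cad, and with library size alone Dctpp1 was -0.06. With 1 library left out, log2 values ran from -0.05 to 0.59 for Cad in HFD over chow, from -0.06 to 0.22 for Dctpp1 and from -0.18 to 0.10 for Rrm2b in SSO over vehicle. Library size alone moved the median of all genes to 0.13 in HFD over chow and -0.20 in SSO over vehicle. The ratios kept their direction in all 48 alternatives. Most of these designs are too small to pass 0.05, so their p-values say nothing on stability. Rrm2b, at 67 counts in 1 library, is the member whose precision depth limits most.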
